A study of Arabidopsis thaliana with 14 samples.

Results

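The TTS-proximal nucleosome and exon 7 of *FLC* were described from all MNase-seq fragments whose midpoint lay 5540 to 6066 bp downstream of the *FLC* transcription start site (TSS), that is, on chromosome 5 of the TAIR10 assembly from 3173382 to 3173908. These 527 bp run from the last bases of intron 6 to the annotated end of the gene, the transcription termination site (TTS). *FLC* lies on the minus strand, and the region made up 5.51% of the 9568 bp captured around it. The window was set by position alone and held 14056 distinct fragments of 241708 in all, a distinct fragment being one pair of ends. Of these, 269 were seen in all 14 libraries and 4211 in 1 library only.

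Arabidopsis seedlings of WT FRI, which is Col-0 carrying an active *FRIGIDA* gene, and of *vrn1-4* FRI, a *vrn1* mutant from fast neutron mutagenesis that had been crossed back to WT FRI, were sampled after 10 days at 22 °C (warm) or after a further 1 week at 5 °C (1 week of cold, called cold below). All 4 groups thus carried active *FRIGIDA*. Seeds of all groups were stratified in the cold for 3 days, and seedlings grew at 22 °C with 16 h of light per day. Cold seedlings were also 1 week older than warm ones, so age and cold cannot be told apart. There were 4 libraries of *vrn1-4* FRI after cold, 3 of *vrn1-4* FRI in the warm, 4 of WT FRI after 1 week of cold and 3 of WT FRI in the warm. The comparisons asked how 1 week of cold and the loss of VRN1 relate to the nucleosomes of this stretch. Each library came from nuclei of whole seedlings, so a share is an average over all their cell types, and a change in some cells cannot be told apart from a smaller change in all of them.

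*FLC* encodes a MADS-box repressor of flowering that is silenced during prolonged cold, a process known as vernalization, and VRN1 is a DNA-binding protein required for that silencing to be maintained. A nucleosome wraps DNA around a histone octamer, and micrococcal nuclease (MNase) digests the linker DNA between nucleosomes. Fragment midpoints thus mark nucleosome centres, and fragment ends the edges of the protected DNA. The 3′ end of *FLC* is also where COOLAIR, the antisense long non-coding RNA of the locus, starts.

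The nucleosome that dominated this stretch sat across the boundary of intron 6 and exon 7. Its most frequent midpoint was base 3173807 on chromosome 5, 5641 bp downstream of the TSS, and it was the same base in all 14 libraries after smoothing over 11 bp. Without smoothing it was 5638 bp in 13 libraries and 5636 bp in 1, and with smoothing over 21 bp it was 5645 to 5647 bp. The most frequent fragment, 148 bp long, ran from 3173736 to 3173883. By the exon 7 that starts 5623 bp downstream of the TSS, it had 58 bases in intron 6 and 90 in the coding part of exon 7. Its downstream end lay 12 bases before the last base of the stop codon. The 3 stretches below, from the RefSeq sequence of TAIR10.1 and read 5′ to 3′ along *FLC*, show the edges and the centre of this nucleosome, since the positions in the results that follow are counted against them. Capitals mark bases inside the most frequent fragment in the upstream edge (chr5:3173869-3173898) and the downstream edge (chr5:3173724-3173753), and the most frequent midpoint in the centre (chr5:3173793-3173822).
upstream edge: gaaaaagatattcctTGGATAGAAGAC0.0439
centre: gagaataatcatcatGtgggagcagaagct
downstream edge: CTTCCGGTGACTCTCCCActacttaattag
The upstream edge line lacks the last bases of its stretch, and the number that closes it is not part of the sequence. The downstream edge stretch ends with the TAG stop codon of *FLC*.

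The deposited values were fractions, and the fractions of each library summed to 1 over *FLC*. All shares are therefore percentages of the *FLC* fragments of one library, a gain in one place implies a loss elsewhere, and the number of reads behind each value was not given. The smallest fraction in a library is an upper bound on the weight of 1 fragment. It was 8.17e-06 and 2.09e-05 in replicates 1 and 2 of WT FRI in the warm. In the other libraries it was 8.73e-07 to 3.67e-06. Distinct *FLC* fragments numbered 86946 to 124173 in *vrn1-4* FRI after cold, 63003 to 82621 in *vrn1-4* FRI in the warm, 46448 to 109647 in WT FRI after 1 week of cold and 14166 to 90960 in WT FRI in the warm. WT FRI in the warm held the library with the fewest distinct fragments in the region (replicate 2, with 875) next to libraries with 1621 and 5155, and the other groups had 2607 to 7388. All 237 capture probes of *FLC* matched the reference exactly, and 12 of them lay wholly in the region. The values cover *FLC* only, so the *vrn1-4* lesion itself was not checked here.

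Along the region, fragment midpoints formed 1 high maximum and a set of low ones. The maximum at 5641 bp ranked second of 147 local maxima over the whole of *FLC* (mean of 14 libraries). A shoulder at 5602 bp reached 0.264 of its height, and the 3 next highest, in the 3′ UTR at 5917, 5989 and 6019 bp, reached 0.172, 0.170 and 0.174. Between the nucleosome and these 3 maxima lay a gap with few fragments, where the maxima at 5752 and 5793 bp reached only 0.030 and 0.022 of the height. The 3′ UTR starts at 5725 bp, so these low maxima of the gap also lay in it. Coverage, the percentage of *FLC* fragments that span a base, was highest at 5624 to 5627 bp in the 14 libraries (3.09 to 5.73%) and lowest at 5786 to 5831 bp (0.127 to 0.229%). Within each library the highest base exceeded the lowest by 13.5 to 41.0 times.

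**Figure D1:**
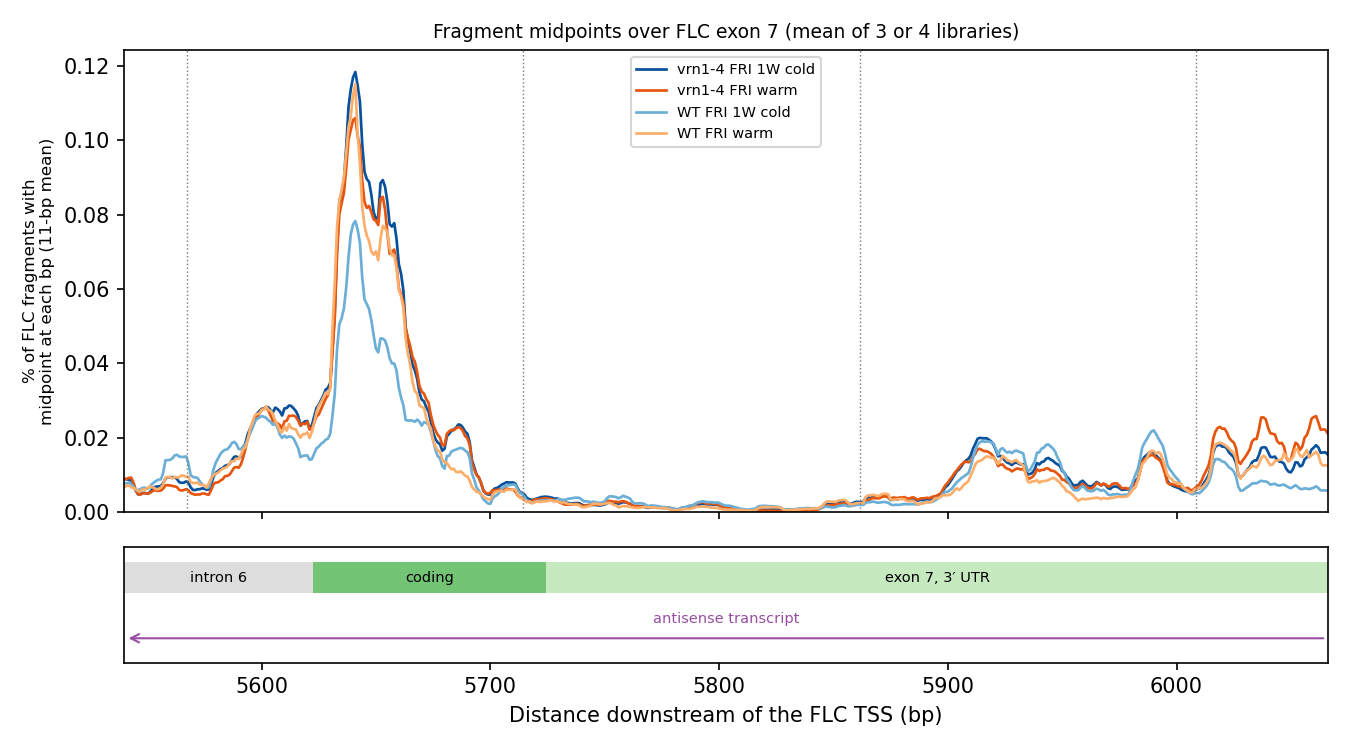
Share of *FLC* fragments per bp by distance of the fragment midpoint downstream of the TSS, as the mean of each of the 4 groups, with the annotated parts of the gene marked. The maximum at 5641 bp stands across the start of exon 7 in every group, followed by the gap, mostly in the 3′ UTR, and the low maxima beyond it.

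For the tests, the nucleosome was taken as midpoints within 73 bp of 5641 bp (5568 to 5714 bp), and the rest of the region was divided downstream of it into windows of 5715 to 5861 bp (the gap), 5862 to 6008 bp and 6009 to 6066 bp. In base composition the nucleosome window was 57.8% A or T, the gap 68.0%, the next window 65.3% and the last, at 58 bp, 48.3%, against 67.1% over the captured *FLC* sequence. Only 7.57% of windows of the same size in that sequence had less A or T than the nucleosome window. MNase prefers to cut beside A and T, and the first base inside the fragments of the region was A or T in 90.7% of ends, near the 90.5% in the rest of *FLC*. The second base inside was A or T in 25.2% of ends in the region and 32.8% in the rest of *FLC*.

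The nucleosome held a smaller share of *FLC* fragments in WT FRI after 1 week of cold than in any other group. Its share was 3.36, 3.03, 3.48 and 3.68% in WT FRI after 1 week of cold, against 4.58, 4.73 and 3.96% in WT FRI in the warm. Every cold library lay below every warm library. The share fell to a mean of 3.39 ± 0.275% (SD, n = 4) in the cold, against 4.42 ± 0.408% (n = 3) in the warm, a ratio of 0.766 (difference -1.04 percentage points, two-sided exact permutation p = 0.0286). The value 0.0286 is the smallest p that 4 libraries can give against 3 or 4.

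In *vrn1-4* FRI the share was 4.75, 4.91, 4.36 and 5.83% after 1 week of cold, against 4.73, 4.59 and 4.65% in the warm. The warm libraries lay inside the range of the cold ones, and the means of 4.96 ± 0.623% (n = 4) and 4.66 ± 0.0665% (n = 3) gave a difference of 0.306 (exact permutation p = 0.571). Replicate 4 was the highest of the cold libraries.

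Between the genotypes after 1 week of cold, every *vrn1-4* FRI library lay above every WT FRI library, by 1.58 percentage points on average (ratio 1.47, exact permutation p = 0.0286). In the warm the difference was 0.233 percentage points (exact permutation p = 0.5, with 0.1 the smallest that 3 libraries against 3 can give), and the ranges overlapped. The cold change in *vrn1-4* FRI less that in WT FRI was 1.34 percentage points and missed the threshold (exact permutation of genotype within temperature, p = 0.0529). It passed without replicate 3 of WT FRI in the warm (1.57, exact permutation p = 0.0157) and with limits moved 20 bp upstream (1.29, exact permutation p = 0.0386). Of the 50 tests made on single values of the region, 14 had a p of at most 0.05 and 0 did so after Benjamini-Hochberg adjustment, where the smallest adjusted p was 0.11. A call below thus means an unadjusted exact p of at most 0.05.

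Both calls on the nucleosome share were lost when each distinct fragment was counted once in place of its frequency. The difference was then -0.335 for cold against warm in WT FRI (exact p = 0.114) and 0.216 for *vrn1-4* FRI against WT FRI in the cold (exact p = 0.0857). A share counted in this way also depends on how deeply a library was sequenced, which was not given, and the libraries had 875 to 7388 distinct fragments in the region. The part of depth in the calls lost or gained under this count, here and below, was not tested. Fragment length differed between the same groups (below), and among fragments of 140 to 150 bp alone both differences were larger, -1.55 and 2.27 percentage points, each with exact p = 0.0286.

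**Figure D2:**
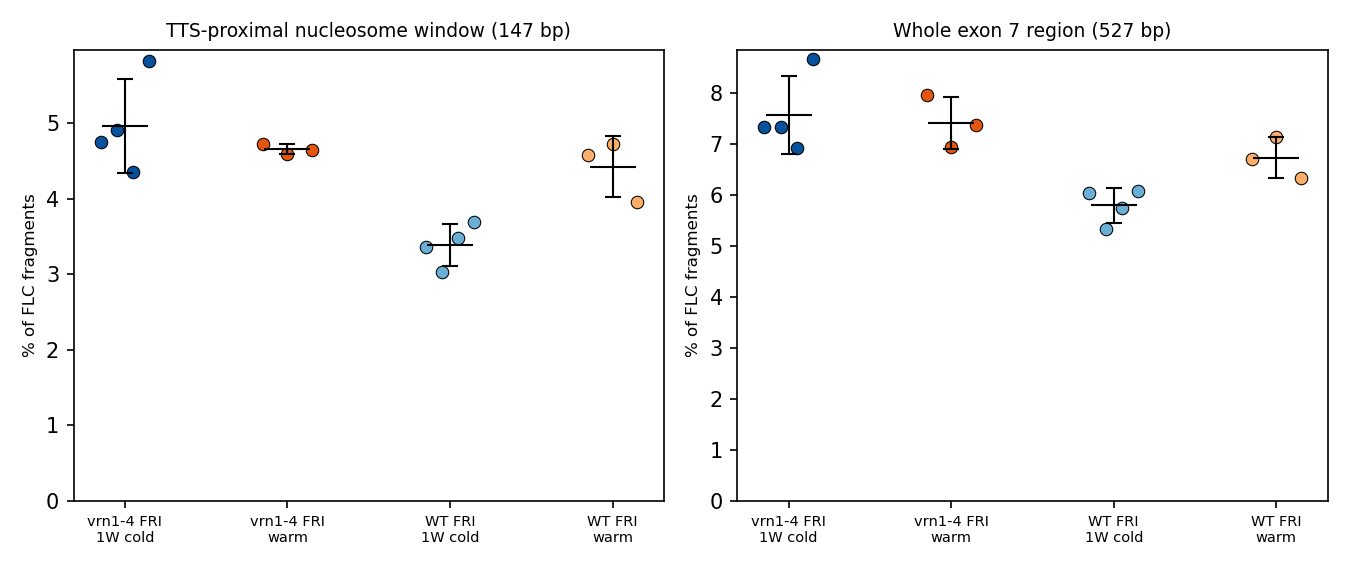
Percentage of *FLC* fragments in the nucleosome window and in the whole region, 1 point per library with the mean and SD of each of the 4 groups. In the nucleosome window the 4 WT FRI libraries after 1 week of cold sit between 3.03 and 3.68%, below all 10 others.

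The nucleosome window held 55.7 to 68.3% of the region's fragments per library. The region as a whole is thus not independent of it. It held 6.03, 5.33, 5.75 and 6.08% of *FLC* fragments in WT FRI after 1 week of cold, against 6.71, 7.15 and 6.34% in WT FRI in the warm, without overlap (5.80 ± 0.344% against 6.73 ± 0.405%, difference -0.931, exact permutation p = 0.0286). In *vrn1-4* FRI it held 7.33, 7.33, 6.92 and 8.68% after 1 week of cold, against 7.95, 6.93 and 7.36% in the warm (difference 0.148, exact permutation p = 0.886). The genotypes did not overlap after cold (difference 1.77, exact permutation p = 0.0286), whereas in the warm they did (difference 0.688, exact permutation p = 0.2). The 2 cold changes differed by 1.08 percentage points (exact permutation p = 0.247). The fall in WT FRI was -0.0584 percentage points with each distinct fragment counted once (exact p = 0.8), and was not called for fragments of 120 to 150 bp (-0.922, exact p = 0.0571) or of 140 to 150 bp (-1.31, exact p = 0.0571).

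Seen as coverage by gene part, the coding part of exon 7 (102 bp) was spanned on average by 3.96 ± 0.537% of *FLC* fragments in *vrn1-4* FRI after cold and 3.71 ± 0.115% in the warm, and by 2.66 ± 0.209% in WT FRI after cold and 3.46 ± 0.331% in the warm. The part of intron 6 in the region (83 bp) had 3.05 and 2.77% in *vrn1-4* FRI, cold and warm, and 2.43 and 2.84% in WT FRI. The 3′ UTR (342 bp) had 0.953 and 0.997% in *vrn1-4* FRI, cold and warm, and 0.871 and 0.819% in WT FRI, lower than the coding part in each group. Coverage was described and not tested, since a fragment adds to many bases.

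Midpoints inside the nucleosome window were more spread in WT FRI after 1 week of cold. Their SD was 31.6, 32.3, 30.3 and 29.7 bp in WT FRI after cold, against 25.1, 26.2 and 28.5 bp in WT FRI in the warm, without overlap (difference 4.37 bp, exact permutation p = 0.0286). In *vrn1-4* FRI the SD was 27.9, 27.3, 29.2 and 24.5 bp after cold, against 27.1, 25.4 and 27.3 bp in the warm, with overlap (difference 0.606 bp, exact permutation p = 0.657). The SD was lower in *vrn1-4* FRI than in WT FRI after cold (difference -3.76 bp, exact permutation p = 0.0286) and differed by 0.0004 bp in the warm. The difference between the cold changes was -3.77 bp (exact permutation p = 0.0614). It passed the threshold without replicate 2 of *vrn1-4* FRI or replicate 3 of WT FRI in the warm (exact permutation p = 0.0314 and 0.01) and with a half-width of 50 bp (-2.91 bp, exact permutation p = 0.0243). The same held for fragments of 120 to 150 bp (-4.33 bp, exact permutation p = 0.0414) and with limits moved 20 bp downstream (-3.52 bp, exact permutation p = 0.0386). With each distinct fragment counted once, both called differences in SD lost the call (2.42 bp, exact p = 0.171, and -0.0669 bp, exact p = 0.943). The genotype difference was also lost with a half-width of 50 bp (-1.97 bp, exact p = 0.0571), and without replicate 4 of *vrn1-4* FRI or any 1 WT FRI library after cold (exact p = 0.0571 each).

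The share of the window's midpoints within 10 bp of 5641 bp gave 37.4, 39.7, 37.6 and 37.6% in *vrn1-4* FRI after cold, against 32.3, 31.6, 36.4 and 36.6% in WT FRI after cold (difference 3.88, exact permutation p = 0.0286). The ranges did not overlap, but the gap between the nearest libraries was small, and without any 1 *vrn1-4* FRI library the exact p was 0.0857. This difference turned to -1.27 with each distinct fragment counted once (exact p = 0.143) and was not called with a half-width of 50 bp (2.39, exact p = 0.229), with limits moved 20 bp downstream (2.82, exact p = 0.2) or for fragments of 140 to 150 bp (4.66, exact p = 0.257). In the warm the values were 34.5, 41.8 and 38.4% in *vrn1-4* FRI and 43.0, 36.6 and 37.0% in WT FRI, in overlapping ranges (difference -0.628, exact permutation p = 0.9). No cold change was called in WT FRI (-4.67, exact permutation p = 0.114) or *vrn1-4* FRI (-0.162, exact permutation p = 0.943). The mean midpoint of the window, at 5637.9 to 5645.2 bp over all libraries, was called in none of the 5 comparisons. The largest difference was 3.43 bp between the genotypes after cold (exact permutation p = 0.0571). It was called with limits moved 20 bp upstream (6.35 bp, exact p = 0.0286) and without replicate 2 of *vrn1-4* FRI after cold (4.25 bp, exact p = 0.0286).

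Some bases were used as fragment ends more than others. The 6 most used downstream ends together closed 16.99 to 35.3% of the region's fragments per library and the 6 most used upstream ends 18.2 to 26.1%. The downstream end at 5712 bp was the most used in the mean of all libraries and closed 7.13 to 12.4% of the region's fragments per library. Among upstream ends, 5565 bp was the most used (3.18 to 7.80%), followed by 5573 bp (4.21 to 6.88%) and 5596 bp (3.42 to 5.96%), with 8 and 23 bases between neighbours. Of the fragments that ended at 5712 bp, those of 148 bp took 15.7 to 28.1% per library, those of 140 bp 8.88 to 18.8% and those of 117 bp 4.67 to 9.46%. The 6 most frequent upstream partners of this end, at lengths of 111, 117, 119, 140, 148 and 149 bp, together took 53.8 to 66.1%.

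The 5 most frequent fragments of the region, by mean frequency, all lay in the nucleosome. The first, 5565 to 5712 bp (148 bp), ranked second of the 241708 distinct fragments of *FLC*. It took 0.153 to 0.186% of *FLC* fragments in *vrn1-4* FRI after cold, 0.123 to 0.168% in *vrn1-4* FRI in the warm, 0.0687 to 0.138% in WT FRI after cold and 0.130 to 0.177% in WT FRI in the warm. The next, 5573 to 5712 bp (140 bp, rank 4 in *FLC*), averaged 0.133 ± 0.0174% and 0.112 ± 0.0242% in *vrn1-4* FRI, cold and warm, and 0.0753 ± 0.0148% and 0.0882 ± 0.0131% in WT FRI. The third, 5565 to 5708 bp (144 bp, rank 11), took 0.0272 to 0.0617% in WT FRI after cold, against 0.0856 to 0.246% in WT FRI in the warm. The remaining pair, 5564 to 5712 bp (149 bp) and 5573 to 5708 bp (136 bp), ranked 33 and 36.

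Of the 12 ends listed, 6 on each side, the downstream end 4 bases short of the main edge had the widest range over the libraries. The end at 5708 bp closed 1.86, 4.24, 4.65 and 5.18% of the region's fragments in WT FRI after cold, against 15.1, 9.97 and 5.29% in WT FRI in the warm. In *vrn1-4* FRI the values were 3.95, 5.55, 2.90 and 7.19% after cold, against 3.38, 7.29 and 4.59% in the warm. Replicates 1 and 2 of WT FRI in the warm, the 2 libraries with the fewest distinct fragments, stood above all others. These single ends and fragments were chosen for their frequency and were not tested.

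**Figure D3:**
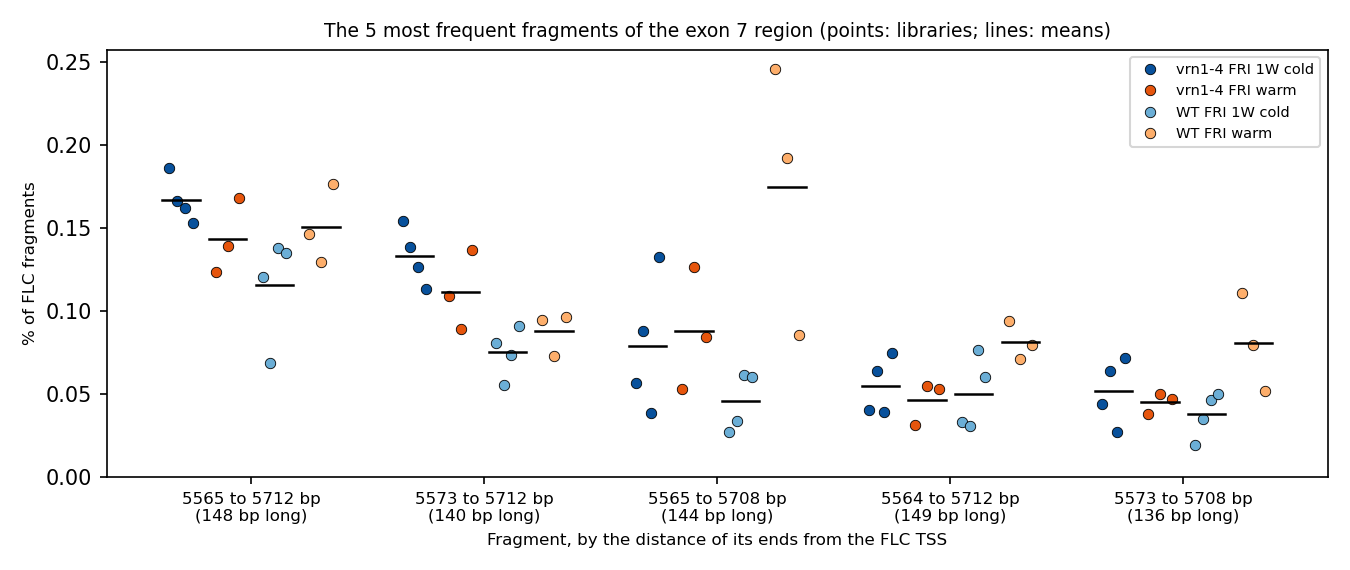
Percentage of *FLC* fragments taken by each of the 5 most frequent fragments of the region, 1 point per library by group. The 148 bp fragment is high in all groups, and the 144 bp fragment runs from 0.0272 to 0.0617% in WT FRI after cold and from 0.0856 to 0.246% in WT FRI in the warm.

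Each window downstream of the nucleosome held a smaller share than the nucleosome, with the gap lowest. The windows differ in width, so their shares are not densities. The gap and the window after it held more in WT FRI after cold than in the warm. The gap held 0.337, 0.291, 0.278 and 0.279% of *FLC* fragments in WT FRI after cold, against 0.181, 0.205 and 0.262% in WT FRI in the warm, without overlap (difference 0.0804, exact permutation p = 0.0286). In *vrn1-4* FRI it held 0.257, 0.241, 0.258 and 0.230% after cold, against 0.238, 0.218 and 0.241% in the warm (difference 0.0140, exact permutation p = 0.229). The gap held less in *vrn1-4* FRI than in WT FRI after cold (difference -0.0501, exact permutation p = 0.0286), and the cold change differed between the genotypes by -0.0664 percentage points (exact permutation p = 0.0414, adjusted 0.148). Leaving out any 1 of 10 of the 14 libraries lost that last call (-0.0491 and exact p = 0.126 without replicate 1 of WT FRI in the warm, the highest p). All 3 calls on the gap were also lost with only fragments entirely inside it (exact p = 0.257, 0.657 and 0.06), with limits moved 20 bp downstream and with each distinct fragment counted once. Limits moved 20 bp upstream lost the genotype call and the difference of the cold changes (exact p = 0.229 and 0.0843), and fragments of 140 to 150 bp lost the cold call in WT FRI (exact p = 0.0571).

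In the next window beyond the gap, 5862 to 6008 bp, WT FRI held 1.39, 1.31, 1.34 and 1.43% after cold, against 1.14, 0.978 and 1.11% in the warm, without overlap (difference 0.294, exact permutation p = 0.0286). With only fragments entirely inside this window the difference was 0.0152 (exact p = 0.457). In *vrn1-4* FRI it held 1.53, 1.49, 1.41 and 0.956% after cold, against 1.18, 1.12 and 1.45% in the warm (difference 0.0942, exact permutation p = 0.629), with replicate 4 after cold the lowest of the 14 libraries. The last window, 6009 to 6066 bp, had no call. It held 0.619, 0.491, 0.664 and 1.49% in *vrn1-4* FRI after cold, against 1.64, 0.834 and 0.870% in the warm. In WT FRI it held 0.662, 0.396, 0.399 and 0.414% after cold, against 0.642, 1.00 and 0.770% in the warm. The exact permutation p was 0.0857 both for cold against warm in WT FRI (difference -0.337) and for the genotypes after cold (difference 0.349). Both were called with each distinct fragment counted once (-0.264 and 0.171, exact p = 0.0286 each), and the first also with limits moved 20 bp downstream (-0.370, exact p = 0.0286).

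Bins of 100 bp over the whole of *FLC*, fitted together with limma on log2(share + 0.0001), placed these shifts against the rest of the gene. In the comparison of *vrn1-4* FRI with WT FRI after cold, 1 of the 5 bins of the region was called, where 42.7% of all 96 bins were (Benjamini-Hochberg adjusted p of at most 0.05). It was the bin with the nucleosome centre, 5567 to 5666 bp, at 4.21 ± 0.608% in *vrn1-4* FRI and 2.81 ± 0.314% in WT FRI (SD, n = 4 each), a log2 difference of 0.58 ± 0.12 (SE, limma adjusted p = 0.0023). Of the 41 called bins of *FLC*, 12 were higher in *vrn1-4* FRI and 29 lower, so this bin moved with the smaller number. Its call was lost with each distinct fragment counted once (0.12, limma adjusted p = 0.438).

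For cold against warm in WT FRI, 0 of the 5 bins was called, against 2.08% of all bins, and 2 of the 5 had an unadjusted limma p under 0.05 (27 of the 96). The bin at 5567 to 5666 bp held 2.81 ± 0.314% after cold (n = 4) and 3.91 ± 0.402% in the warm (n = 3), a log2 difference of -0.48 ± 0.12 just outside the threshold (limma adjusted p = 0.0609). It was called among fragments of 120 to 150 bp (limma adjusted p = 0.0401) and of 140 to 150 bp (0.0346) and with a pseudocount of 0.001 (0.0401). Leaving out replicate 1 or 4 of WT FRI after cold or replicate 3 of WT FRI in the warm also gave the call (0.047, 0.0414 and 0.0353). It was not called in the other 4 omissions of a WT FRI library (at most 0.242). The other, 5867 to 5966 bp in the 3′ UTR, held 0.937 ± 0.0644% after cold and 0.720 ± 0.0885% in the warm, a log2 difference of 0.38 ± 0.17 (limma adjusted p = 0.138). For cold against warm in *vrn1-4* FRI, limma called 0 of the 5 bins and 0% of all bins, and 0 of the 5 had an unadjusted p under 0.05 (15 of the 96).

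In the warm, 1 of the 5 bins differed between the genotypes, against 38.5% of all bins. The bin at 5667 to 5766 bp, on the downstream flank of the nucleosome, held 0.890 ± 0.131% in *vrn1-4* FRI and 0.634 ± 0.0932% in WT FRI (n = 3 each), a log2 difference of 0.48 ± 0.15 (limma adjusted p = 0.026). Leaving out replicate 1 or 3 of *vrn1-4* FRI in the warm lost this call (limma adjusted p = 0.0942 and 0.0708). So did leaving out replicate 1 or 3 of WT FRI in the warm (0.092 and 0.0621). The difference of the cold changes was called in 0 of the 5 bins and 1.04% of all bins. In the bin at 5567 to 5666 bp, the only 1 of the 5 with an unadjusted limma p under 0.05, it was 0.58 ± 0.18 on the log2 scale (limma adjusted p = 0.269).

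**Figure D4:**
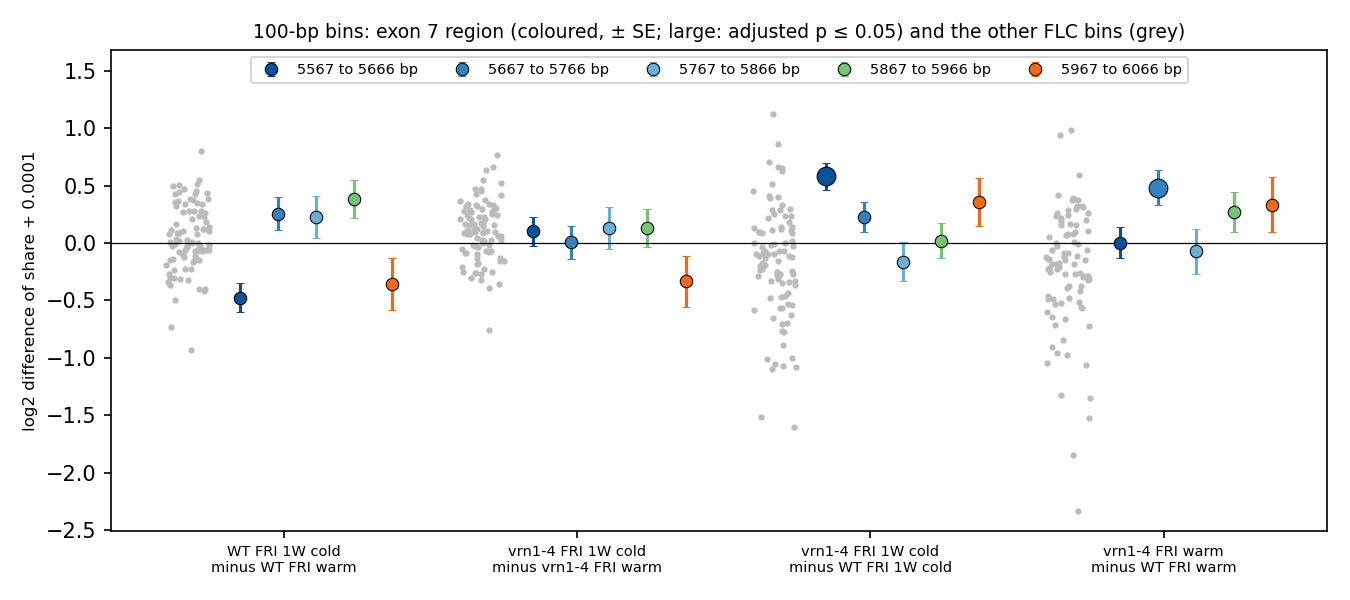
Log2 difference in share for each 100-bp bin of the region, with its standard error, in the comparisons tested, by distance downstream of the TSS. The bin at 5567 to 5666 bp lies at -0.48 for cold against warm in WT FRI and at 0.58 for *vrn1-4* FRI against WT FRI after cold.

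Bins of 20 bp gave a finer view of the genotype differences in the region. After cold, 7 of the 26 bins of the region were called, 4 higher and 3 lower in *vrn1-4* FRI, against 29.1% of the 454 bins tested over *FLC*. The 3 with the smallest p joined end to end across the centre, at 5607 to 5626 bp (log2 difference 0.58, limma adjusted p = 0.0086), 5627 to 5646 bp (0.62, limma adjusted p = 0.011) and 5647 to 5666 bp (0.94, limma adjusted p = 0.0047). In the last of these, *vrn1-4* FRI held 1.35, 1.27, 1.09 and 2.06% of *FLC* fragments and WT FRI 0.655, 0.717, 0.708 and 0.844%, without overlap. All 3 calls were lost with each distinct fragment counted once (limma adjusted p = 0.114, 0.606 and 0.8). The other 4 called bins, named after their values had been seen, included 1 higher at the downstream edge, 5687 to 5706 bp (0.46, limma adjusted p = 0.0439). The 3 lower ones were 5547 to 5566 bp and 5567 to 5586 bp at the upstream edge (-0.53 and -0.47, limma adjusted p = 0.0125 and 0.0268) and 5807 to 5826 bp in the gap (-0.72, limma adjusted p = 0.0127). Among these called bins, *vrn1-4* FRI after cold was higher across the centre and at the downstream edge, and lower at the upstream edge and in the gap. Calls were no more frequent in the region than over *FLC* as a whole.

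In the warm, 4 of the 26 bins were called, 2 higher and 2 lower in *vrn1-4* FRI, against 25.8% of all bins. Those with the smallest p were 5887 to 5906 bp in the 3′ UTR (0.80, limma adjusted p = 0.011), 5687 to 5706 bp at the downstream edge (0.65, limma adjusted p = 0.021) and 5567 to 5586 bp at the upstream edge (-0.52, limma adjusted p = 0.036). Each lost its call without *vrn1-4* FRI replicate 1 in the warm (limma adjusted p = 0.0506, 0.0963 and 0.0977). The bin at 5687 to 5706 bp was not called either without *vrn1-4* FRI replicate 3 or WT FRI replicate 1 (limma adjusted p = 0.0731 and 0.0775), with each distinct fragment counted once (0.21, limma adjusted p = 0.373), for fragments of 140 to 150 bp (0.144) or with only the warm groups in the fit (0.0645). The bin at 5567 to 5586 bp was not called without any 1 of the 6 warm libraries, for fragments of 120 to 150 bp (0.1) or with only the warm groups in the fit (0.058), and was at 0.0069 with each distinct fragment counted once (limma adjusted p = 0.981). For cold against warm in WT FRI, 0 of the 26 bins was called, against 2.86% of all bins, with 13 of the 26 and 116 of the 454 at an unadjusted limma p under 0.05. For cold against warm in *vrn1-4* FRI it was 0 of 26, against 0%, with 1 of the 26 and 59 of the 454 at that unadjusted limma p. For the difference of the cold changes it was 0 of 26, against 0%, with 4 of the 26 and 24 of the 454.

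Fragments of the region were longer in WT FRI after 1 week of cold, as they were along the whole gene. Their mean length was 133.5, 133.3, 133.7 and 133.0 bp in WT FRI after cold, against 129.4, 126.2 and 132.0 bp in WT FRI in the warm, without overlap (difference 4.16 bp, exact permutation p = 0.0286). In *vrn1-4* FRI it was 130.2, 129.7, 131.7 and 128.2 bp after cold, against 129.0, 126.1 and 129.5 bp in the warm (difference 1.77 bp, exact permutation p = 0.257). After cold, *vrn1-4* FRI fragments were shorter than those of WT FRI (difference -3.41 bp, exact permutation p = 0.0286), and in the warm the difference was -1.02 bp (exact permutation p = 0.6). The genotype difference after cold had an exact p of 0.0571 without any 1 WT FRI library. The difference of the cold changes was -2.39 bp (exact permutation p = 0.314). The rest of *FLC* moved with the region, at 126.3 to 129.5 bp in *vrn1-4* FRI after cold, 124.4 to 127.4 bp in *vrn1-4* FRI in the warm, 131.6 to 132.9 bp in WT FRI after cold and 125.3 to 130.6 bp in WT FRI in the warm. Length is set by the extent of digestion as well as by what protects the DNA, and the part of either was not tested.

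Set against the rest of *FLC* in the same library, the region's fragments were longer in 14 of 14 libraries, by 1.50 ± 0.627 bp (exact sign-flip permutation p = 0.000122, the smallest that 14 libraries can give). The excess was 2.13, 2.05, 2.22 and 1.95 bp in *vrn1-4* FRI after cold, against 1.87, 0.411, 1.06 and 0.585 bp in WT FRI after cold, without overlap (difference 1.10 bp, exact permutation p = 0.0286, or 0.0571 without any 1 *vrn1-4* FRI library). In the warm it was 1.89, 1.67 and 2.07 bp in *vrn1-4* FRI, against 0.857, 0.864 and 1.41 bp in WT FRI, again without overlap, at the smallest p that 3 against 3 can give (difference 0.833 bp, exact permutation p = 0.1). The genotype difference after cold was 0.00987 bp with each distinct fragment counted once (exact p = 0.914), 0.534 bp for fragments of 120 to 150 bp (exact p = 0.0571) and 0.824 bp without the 20 most frequent fragments (exact p = 0.114).

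**Figure D5:**
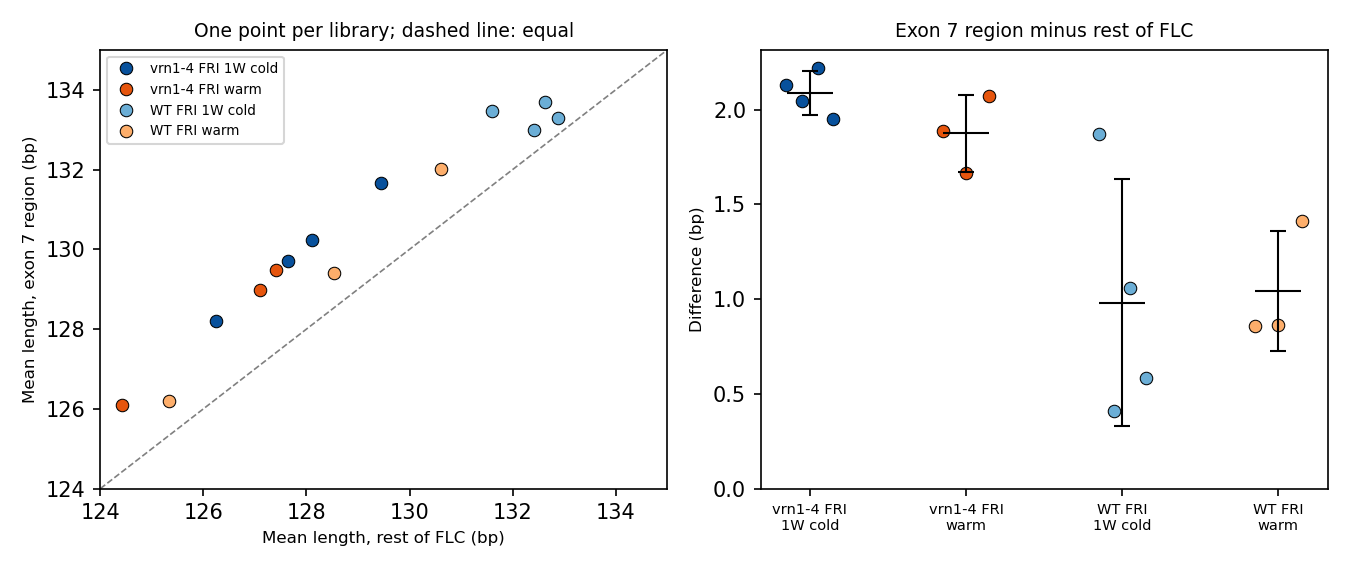
Mean fragment length in the region against that in the rest of *FLC*, in bp, 1 point per library with the line of equality. All 14 libraries lie above the line, *vrn1-4* FRI by 1.67 to 2.22 bp and WT FRI by 0.411 to 1.87 bp.

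By 100-bp bin, limma called mean length higher in WT FRI after cold than in the warm in 3 of the 5 bins of the region, against 82.3% of all bins. The bin with the nucleosome centre, 5567 to 5666 bp, was not among them, at 131.9 ± 0.539 bp after cold and 128.9 ± 2.74 bp in the warm (difference 2.98 ± 1.47 bp, SE, limma adjusted p = 0.0514). Neither was the gap bin at 5767 to 5866 bp (difference 0.855 ± 1.47 bp, limma adjusted p = 0.561). The call at 5867 to 5966 bp was lost without replicate 2 of WT FRI in the warm (difference 2.84 bp, against 4.97 bp with it, limma adjusted p = 0.0765). After cold, length was lower in *vrn1-4* FRI than in WT FRI in 4 of the 5 bins, against 92.7% of all bins. The exception was again 5567 to 5666 bp (129.6 ± 1.17 bp in *vrn1-4* FRI and 131.9 ± 0.539 bp in WT FRI, difference -2.27 ± 1.36 bp, limma adjusted p = 0.099). In both comparisons this bin was called with each distinct fragment counted once (2.10 bp and -1.66 bp, limma adjusted p = 0.011 and 0.0207). In the warm, 1 of the 5 bins was lower in *vrn1-4* FRI, against 16.7% of all bins, the gap bin at 5767 to 5866 bp (difference -4.37 bp, limma adjusted p = 0.0382). It lost its call without replicate 2 or 3 of *vrn1-4* FRI in the warm (limma adjusted p = 0.258 and 0.0713) and without replicate 1 or 3 of WT FRI in the warm (0.171 and 0.0687). The same held with each distinct fragment counted once (0.127) and with only the warm groups in the fit (0.189). For cold against warm in *vrn1-4* FRI, limma called 0 of the 5 bins, against 1.04% of all bins, with 0 of the 5 and 11 of the 96 at an unadjusted p under 0.05. For the difference of the cold changes, limma called 0 of the 5, against 1.04% of all bins, with 0 of the 5 and 7 of the 96 at that unadjusted p.

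Within each library, the nucleosome was compared with those on both sides of the TSS, the -1 nucleosome centred 136 bp upstream and the +1 nucleosome centred 148 bp downstream of it. Its share exceeded that of the -1 nucleosome in 14 of 14 libraries, by 2.01 ± 0.489 percentage points, and that of the +1 nucleosome in 14 of 14, by 1.70 ± 0.639 (exact sign-flip permutation p = 0.000122 each). Its midpoints were less spread than those of both in all 14, with a difference in SD of -8.15 ± 1.70 bp from the -1 and -5.03 ± 4.30 bp from the +1 nucleosome (exact sign-flip permutation p = 0.000122 each). The percentage of midpoints within 10 bp of the centre was higher than at the -1 nucleosome in 12 of 14 libraries (5.95 ± 3.88, exact sign-flip permutation p = 0.000488) and higher than at the +1 nucleosome in 5 of 14 (0.243 ± 6.67, exact sign-flip permutation p = 0.904). Per 100 bp, the whole region held more fragments than the rest of *FLC* in 13 of 14 libraries (0.270 ± 0.180 percentage points, exact sign-flip permutation p = 0.000244). These comparisons within libraries, 9 in all, were added after the values had been seen. Adjusted over the 9, all but the +1 comparison of midpoints within 10 bp had an adjusted p of at most 0.000549.

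In the annotation, the antisense transcript AT5G01675, on the plus strand from 3173371 to 3179600, starts 436 bp from the nucleosome's most frequent midpoint and 365 bp from the nearest edge of its most frequent fragment, so the gap and the windows beyond it lie between them. The 4 annotated *FLC* transcripts have 2 distinct ends, at 3173382 and 3173497. The nucleosome window thus lies upstream of both, over the splice acceptor of the exon 7 that starts at 5623 bp and short of the stop codon. An annotated transcript has a longer last exon, from 5557 to 5951 bp, whose start lies upstream of the whole window. No RNA was measured in these libraries.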

How the data were processed

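Nuclei of whole seedlings were digested with MNase, and *FLC* fragments were enriched with capture probes and sequenced in pairs. Per the study's methods, the authors trimmed reads with fastp, aligned them to TAIR10 with Bowtie2, processed them with SAMtools (version 1.5 in the submitters' processing notes), discarded reads with a base quality under 10 and kept fragments of 100 to 150 bp. Removal of PCR duplicates is not given in the sources used here. The deposited values were, for each library and each pair of ends, the fraction of *FLC* fragments, as the authors computed it. No depth is given, so precision rests on the spread between the 3 or 4 libraries of a group, each from separately ground tissue. Groups came from the sample labels.

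Fractions were summed by fragment midpoint. Single values per library were compared by two-sided exact permutation of libraries (for the difference of cold changes, of genotype within temperature), with Benjamini-Hochberg adjustment over 50 tests. Bins were fitted over all of *FLC* with limma 3.58.1 (R 4.3.3) on all 14 libraries, on log2(share + 0.0001) or on length in bp, for bins with a mean share of at least 0.0001, and the script was tested on simulated data. For length, limma pooled the spread over all bins. Other steps used Python 3.11.15, numpy 2.4.6 and pandas 2.3.3. Bins named are all 100-bp bins wholly in the region and, of its 20-bp bins past the threshold, the 3 with the smallest p per comparison. Fragments named are the 5 most frequent on average. Members, windows and tests were chosen with earlier results of these data known. Alternatives were each distinct fragment once, narrower lengths, fragments entirely inside, other limits, half-width, pseudocounts, filter, bin starts, groups in the fit, a replicate block, omission of the 20 most frequent fragments and of each library in turn.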

Additional observations from a re-analysis of the deposited data

Results flagged for a closer look

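Each of 10 values was checked, in both groups with 4 libraries, for a library far from its others. Of these 20 checks, 2 found such a library, where chance picks about 1 in 20. The checks reuse the same libraries and are not independent. Replicate 2 of *vrn1-4* FRI after cold had 39.7% of its nucleosome midpoints within 10 bp of the centre, where the other 3 had 37.4 to 37.6%. Replicate 1 of WT FRI after 1 week of cold had 0.662% of *FLC* fragments at 6009 to 6066 bp, where the other 3 had 0.396 to 0.414%. Of 10 differences between the cold changes of the 2 genotypes, that in the gap (5715 to 5861 bp) had a p of at most 0.05, with -0.0664 percentage points for *vrn1-4* FRI less WT FRI (exact permutation p = 0.0414, adjusted 0.148).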

How the results depend on the processing

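Values are differences in percentage points (shares), bp (lengths and midpoints) or log2 units (share bins, by nearest bp), or counts of bins called over *FLC*. Apart from leaving out libraries, 865 values were recomputed under other settings. Of these, 700 kept direction and side of the threshold (for counts of bins, a similar count). Another 75 were weaker, 29 were stronger and 61 changed sign. Weaker or stronger means a lost or gained call or, for a count of bins, a marked fall or rise of the count. The cause of each change was not tested, with exceptions fixed by the number of libraries. An exact p cannot fall below 0.1 for 3 libraries against 3, and a block allows fewer arrangements. Leaving out a WT FRI library also puts the exact p for cold against warm in WT FRI above the threshold, as given below.

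With each distinct fragment counted once, the cold effect in WT FRI was -0.0584 (region share), -0.335 (nucleosome share), 0.0777 (length less the rest of *FLC*), 0 (100-bp share count), 0 (20-bp share count). The cold effect in *vrn1-4* FRI was -0.214 (region share), -0.131 (nucleosome share), -0.0542 (length less the rest of *FLC*), -0.0411 (5862 bp window), -0.0178 (5867 bp share bin), -0.0812 (5667 bp share bin), -0.0441 (5567 bp share bin), 0 (100-bp length count). The genotype difference in the cold was 0.216 (nucleosome share), -1.27 (share within 10 bp), 0.00911 (5862 bp window), 7 (100-bp share count), 2 (20-bp share count). The genotype difference in the warm was -0.0552 (mean midpoint), 10 (100-bp share count), 0.217 (5767 bp share bin), -0.0370 (5567 bp share bin), 21 (20-bp share count), 0.00690 (5567 bp 20-bp share bin), 3 (100-bp length count), 0.00542 (5867 bp length bin). The difference of cold effects was -0.155 (region share), -0.132 (length less the rest of *FLC*), 0 (100-bp share count), 0 (100-bp length count), -1.17 (5767 bp length bin).

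With fragments of 120 to 150 bp, cold less warm in WT FRI was -0.922 (region share), -7.98 (share within 10 bp), 0.161 (mean midpoint), 4 (100-bp share count), 3 (20-bp share count), -0.770 (5767 bp length bin). *vrn1-4* FRI gave cold effects of -0.228 (length less the rest of *FLC*), 0.837 (share within 10 bp), 0 (100-bp length count). In the warm, the genotypes differed by 0.116 (5967 bp length bin). Cold effects differed between genotypes by -0.826 (mean midpoint), -0.0157 (6009 bp window), 0 (100-bp share count), -0.0171 (5967 bp share bin), 0 (100-bp length count), 0.112 (5567 bp length bin).

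With fragments of 140 to 150 bp, an alternative chosen after seeing the data, WT FRI gave cold effects of -1.31 (region share), 2.14 (mean midpoint), -0.0804 (5767 bp share bin), 23 (20-bp share count). Cold less warm in *vrn1-4* FRI was -0.0475 (region share), -0.0120 (gap), -0.0102 (5767 bp share bin), -0.0162 (5667 bp share bin). In the cold, the genotypes differed by 4.66 (share within 10 bp), -0.0396 (5867 bp share bin), 82 (20-bp share count). Warm *vrn1-4* FRI less warm WT FRI was -0.505 (midpoint SD), 69 (20-bp share count). Between the genotypes, cold effects differed by -2.63 (mean midpoint), -0.121 (6009 bp window), 0 (100-bp share count), -0.127 (5967 bp share bin), 0.0701 (5767 bp share bin).

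With fragments entirely inside the limits, the cold effect in *vrn1-4* FRI was -0.00867 (gap). Cold *vrn1-4* FRI less cold WT FRI was 0.0390 (5862 bp window). The difference of cold effects was 0.00754 (5862 bp window).

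With limits moved 20 bp downstream, the cold effect in WT FRI was 1.14 (mean midpoint). *vrn1-4* FRI gave cold effects of 0.132 (share within 10 bp). The genotype difference in the cold was 2.82 (share within 10 bp), 0.00507 (5862 bp window). Cold effects differed between genotypes by -1.34 (mean midpoint).

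With limits moved 20 bp upstream, in the cold, the genotypes differed by 0.0421 (5862 bp window). The genotype difference in the warm was -0.585 (midpoint SD). Between the genotypes, cold effects differed by 1.29 (nucleosome share), -0.0523 (6009 bp window).

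With a half-width of 50 bp, cold less warm in WT FRI was 0.265 (mean midpoint). Cold less warm in *vrn1-4* FRI was -0.0767 (midpoint SD), 0.320 (share within 10 bp). Cold *vrn1-4* FRI less cold WT FRI was 2.39 (share within 10 bp). The difference of cold effects was -0.789 (mean midpoint).

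Without the 20 most frequent fragments, WT FRI gave cold effects of 0.397 (length less the rest of *FLC*). In the warm, the genotypes differed by -0.306 (midpoint SD), 0.746 (share within 10 bp). Cold effects differed between genotypes by -0.160 (length less the rest of *FLC*).

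With bins shifted by 50 bp, the cold effect in WT FRI was 4 (100-bp share count). Warm *vrn1-4* FRI less warm WT FRI was 7 (100-bp length count). Between the genotypes, cold effects differed by 0 (100-bp share count), 0 (100-bp length count).

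Without the filter, cold less warm in WT FRI was 20 (20-bp share count).

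With only the groups compared, WT FRI gave cold effects of 1 (100-bp share count). The genotype difference in the warm was 2 (100-bp length count).

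With a pseudocount of 0.00001, the cold effect in WT FRI was 1 (20-bp share count).

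With a pseudocount of 0.001, cold less warm in WT FRI was 31 (20-bp share count).

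Libraries share replicate numbers across groups, and the correlations of their deviations over the 100-bp bins were mixed (-0.0547 to 0.0495 for cold and warm in WT FRI, -0.225 to 0.605 in *vrn1-4* FRI, 0.0216 to 0.396 between genotypes in the cold and -0.589 to 0.082 in the warm). They were not set against correlations of unmatched libraries, so they cannot show whether libraries are paired. The main tests left the replicate number out. With the replicate number as a block, WT FRI gave cold effects of -1.03 (region share), -1.14 (nucleosome share), 4.28 (mean length), 0.0696 (length less the rest of *FLC*), 17 (100-bp share count), 51 (20-bp share count). The cold effect in *vrn1-4* FRI was -0.224 (region share), 2 (100-bp length count). The genotype difference in the cold was 1.77 (region share), 1.58 (nucleosome share), -3.41 (mean length), 3.88 (share within 10 bp). In the warm, the genotypes differed by 25 (100-bp length count). The difference of cold effects was -0.729 (mean midpoint), -0.203 (6009 bp window). The smallest p under the block is 0.25 for 3 pairs and 0.125 for 4, so no exact test could be called. By limma, the 5567 bp share bin for cold against warm in WT FRI was -0.55 under the block, with an adjusted p of 0.0146.

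Leaving out each library in turn gave 1008 values. In the same terms as above, 802 were unchanged, 123 weaker and 20 stronger, and 63 changed sign. Without a warm WT FRI library, the smallest exact p for cold against warm in WT FRI is 0.0667, and without a cold one 0.1. All 7 omissions thus had to lose the call on region share, nucleosome share, mean length, midpoint SD, gap and 5862 bp window. Those losses are part of the 123 and cannot show how far a call rests on a single library. For the cold effect in WT FRI, values then ran from -1.13 to -0.724 (region share), -1.27 to -0.883 (nucleosome share), 2.66 to 5.57 (mean length), -0.359 to 0.127 (length less the rest of *FLC*), 1 to 12 (100-bp share count), 1 to 52 (20-bp share count), 42 to 92 (100-bp length count). For the cold effect in *vrn1-4* FRI, values then ran from -2.05 to 1.65 (share within 10 bp), -0.0445 to 1.50 (midpoint SD), -0.224 to 0.416 (region share), -1.60 to 0.220 (mean midpoint), -0.112 to 0.10 (5667 bp share bin), 0 to 10 (100-bp share count), 0 to 1 (20-bp share count), 0 to 2 (100-bp length count), -0.336 to 2.01 (5867 bp length bin), -0.136 to 1.80 (5767 bp length bin). For the genotype difference in the cold, values then ran from 3.00 to 4.67 (share within 10 bp), -0.0847 to 0.106 (5862 bp window), -3.99 to -2.83 (mean length), -0.0551 to 0.190 (5867 bp share bin), 67 to 176 (20-bp share count). For the genotype difference in the warm, values then ran from -0.759 to 0.952 (midpoint SD), -2.44 to 1.43 (share within 10 bp), -2.52 to 0.385 (mean length), -0.000981 to 0.0394 (gap), 13 to 32 (100-bp share count), -0.228 to 0.0855 (5767 bp share bin), -0.0856 to 0.0503 (5567 bp share bin), 44 to 109 (20-bp share count), 2 to 58 (100-bp length count), -2.57 to 1.24 (5867 bp length bin), -1.63 to 0.578 (5667 bp length bin), -2.97 to 0.504 (5967 bp length bin), -2.51 to 0.235 (5567 bp length bin). For the difference of cold effects, values then ran from -0.601 to 1.39 (mean midpoint), -0.185 to 0.302 (6009 bp window), 1.05 to 1.57 (nucleosome share), 0 to 1 (100-bp share count), -0.249 to 0.0640 (5767 bp share bin), -0.184 to 0.265 (5967 bp share bin), -0.990 to 0.944 (5767 bp length bin), 1 to 11 (100-bp length count), -2.51 to 0.237 (5567 bp length bin).

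Read counts were not given, so the precision of a single library was not computed. The libraries with few distinct fragments, replicates 1 and 2 of WT FRI in the warm, weigh as much as the others. A share cannot show whether the nucleosome or the rest of *FLC* changed in absolute terms, and shares, lengths and spread within the region come from the same fragments and are not independent of each other.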
